A study of Homo sapiens with 12 samples.

Results

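The 35 genes described here encode proteins that copy mitochondrial DNA and that transcribe, process, protect and degrade mitochondrial RNA (mtRNA). They were chosen by symbol from this known machinery, and all 35 were found among the 60708 genes of the deposited count tables and passed the filter on low counts in both comparisons. By the step in which they act, 7 belong to replication, 9 to transcription, 8 to processing, 7 to RNA stability and 4 to decay.

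RNA-seq was performed on HCT116, a human colorectal carcinoma cell line labelled wild type. Cells received oligomycin A (OA), which blocks the mitochondrial ATP synthase, or tunicamycin (TN), which blocks N-glycosylation and stresses the endoplasmic reticulum (ER), at 5 µg/mL for 24 h by the labels. The methods of the study name a higher OA dose than the labels do. The labels give a stranded kit for total RNA, whereas the study calls the assay mRNA-seq, which bears on the levels of RNAs without long poly(A) tails, such as RN7SL1 and the mitochondrial ribosomal RNAs. Each stressor had 3 biological replicates and its own 3 replicates treated with DMSO alone for 24 h, so that the 12 libraries form 2 separate sets of 6, and the data come from 1 cell line at 1 time point.

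Library totals ranged from 9884124 to 24983573 counts, and the lowest count of any of the 35 genes in a library was 15, for PRIMPOL. The 8 epithelial markers summed to between 4244 and 9169 CPM (counts scaled for the depth of each library) in the 12 libraries, whereas the 8 leukocyte markers and the 6 endothelial markers summed to at most 2.11 and 2.696 CPM. Of the epithelial markers 3 rose with OA and 4 with TN. The 8 fibroblast markers summed to between 1.42 and 2.59 CPM in DMSO and to between 4.67 and 12.9 CPM with OA, most of it COL1A1, a collagen chain, which DESeq2 called higher and edgeR did not, while COL3A1, LUM and PDGFRA were at 0 in that set. The endothelial markers, with CDH5 and EMCN at 0 in the OA set, summed to between 0.210 and 0.632 CPM in DMSO and to between 0.798 and 2.696 CPM with OA, and both sums overlapped between TN and DMSO. The part of these markers in the results was not tested. Of 9 genes of the integrated and ER stress responses, such as DDIT3, ATF4 and HSPA5, 8 rose with OA and 9 with TN. RN7SL1, the RNA of the signal recognition particle, took 6.02% to 8.11% of counts in the 6 DMSO libraries and more in all 6 treated libraries, with 8.4%, 17.9% and 12.5% in OA replicates 1 to 3 and 13.3%, 9.22% and 10.02% in TN replicates 1 to 3. The part of this share in the lower values of the members was not tested. OA replicate 2 and TN replicate 1 held the largest shares of their groups. DMSO and TN replicates 2 and 3 of the TN set differed from both libraries numbered 1 in interferon-stimulated genes. IFIT1, chosen after its values were seen and known as an interferon-induced RNA-binding protein, stood at 7.01, 953 and 1059 CPM in the DMSO libraries and at 2.63, 252 and 283 CPM with TN.

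As background, human mitochondria hold a small circular genome that is copied by its own DNA polymerase, helicase and single-strand binding protein and is transcribed from both strands as long polycistronic RNAs by a phage-like RNA polymerase with TFAM and TFB2M. The transfer RNAs that punctuate these precursors are cut out at both ends to release messenger and ribosomal RNAs, which are polyadenylated and bound by the LRPPRC and SLIRP complex. The light strand gives mostly noncoding antisense RNA, which the SUPV3L1 and PNPT1 degradosome removes and which would otherwise form double-stranded RNA. All of these proteins are encoded in the nucleus.

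Most of the machinery was lower in treated cells than in the DMSO cells of the same set, but only 1 gene, MGME1 with TN, passed the test by itself. The log2 fold change was below 0 for 29 of 35 genes with OA, with a median of -0.59, and for 30 of 35 with TN, with a median of -0.56. Over all tested genes the medians were -0.02 and -0.03, with 51.2% and 51.9% of genes below 0. The summed level of the 35 genes was 2767, 2787 and 2578 CPM in the DMSO libraries of OA and 2008, 1772 and 1965 CPM with OA. It was 2808, 2855 and 2955 CPM in the DMSO libraries of TN and 1829, 2008 and 2072 CPM with TN. In both sets every treated library was below every DMSO library. In bulk RNA, a lower level in each cell and fewer cells that hold the transcripts cannot be told apart.

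With edgeR's quasi-likelihood test and Benjamini-Hochberg adjustment over all tested genes, no member passed an adjusted p of 0.05 with OA, for which 4.48% of all tested genes did (1.72% lower). With DESeq2, 4 members passed, all lower, against 5.31% of all genes that were lower, and 10 members had an unadjusted edgeR p under 0.05, all lower, against 10.3% of all genes that were lower. For TN, 1 of 35 passed against 6.99% of all genes (3.34% lower), 5 passed with DESeq2, all lower, against 7.15% of all genes, and 13 had an unadjusted p under 0.05, all lower, against 12.1%. The same-numbered libraries of the TN set deviated together, and with the replicate number as a block 16 of 35 members fell with TN, against 15.3% of all genes. With OA, where the numbers were not taken as pairs, the block also called 16 members, all lower, and 2201 of 14681 genes lower. For single genes, p-values with the block alone are given below for TN only. Leaving out 1 library at a time gave 0 to 3 members called with OA and 0 to 6 with TN. The 3 came without OA replicate 1 (MTERF2, MTERF3 and FASTKD3), where 2.88% of all genes fell, the 6 without TN replicate 1 (TWNK, MGME1, POLRMT, MTERF3, ELAC2 and FASTKD5), where 8.54% fell, and MGME1 was lost without replicate 2 or 3 of the DMSO libraries of TN.

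Groups that did not overlap were also mostly lower. With OA, 15 members had all 3 treated libraries below all 3 DMSO libraries, against 15.5% of all genes, and 3 members, TOP1MT, SUPV3L1 and REXO2, had them above, against 16.3% of all genes. With TN the counts were 15 lower, against 16.8% of all genes, and 1 higher, REXO2, against 15.9%. Between libraries of the TN set with the same number, 27 members (77.1%) were lower with TN in all 3 pairs, whereas 33.2% of all genes were. Single libraries weighed on these values. Without TN replicate 1 the log2 fold change of 16 of the 30 members below 0 came nearer to 0 by over 1.5 times, and that of 4 went farther from 0 by as much. For the 29 members below 0 with OA, 7 came nearer to 0 without OA replicate 2, without DMSO replicate 1 or without DMSO replicate 2, and 8 went farther without OA replicate 1. The plot of single libraries shows where the spread lies.

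**Figure D1:**
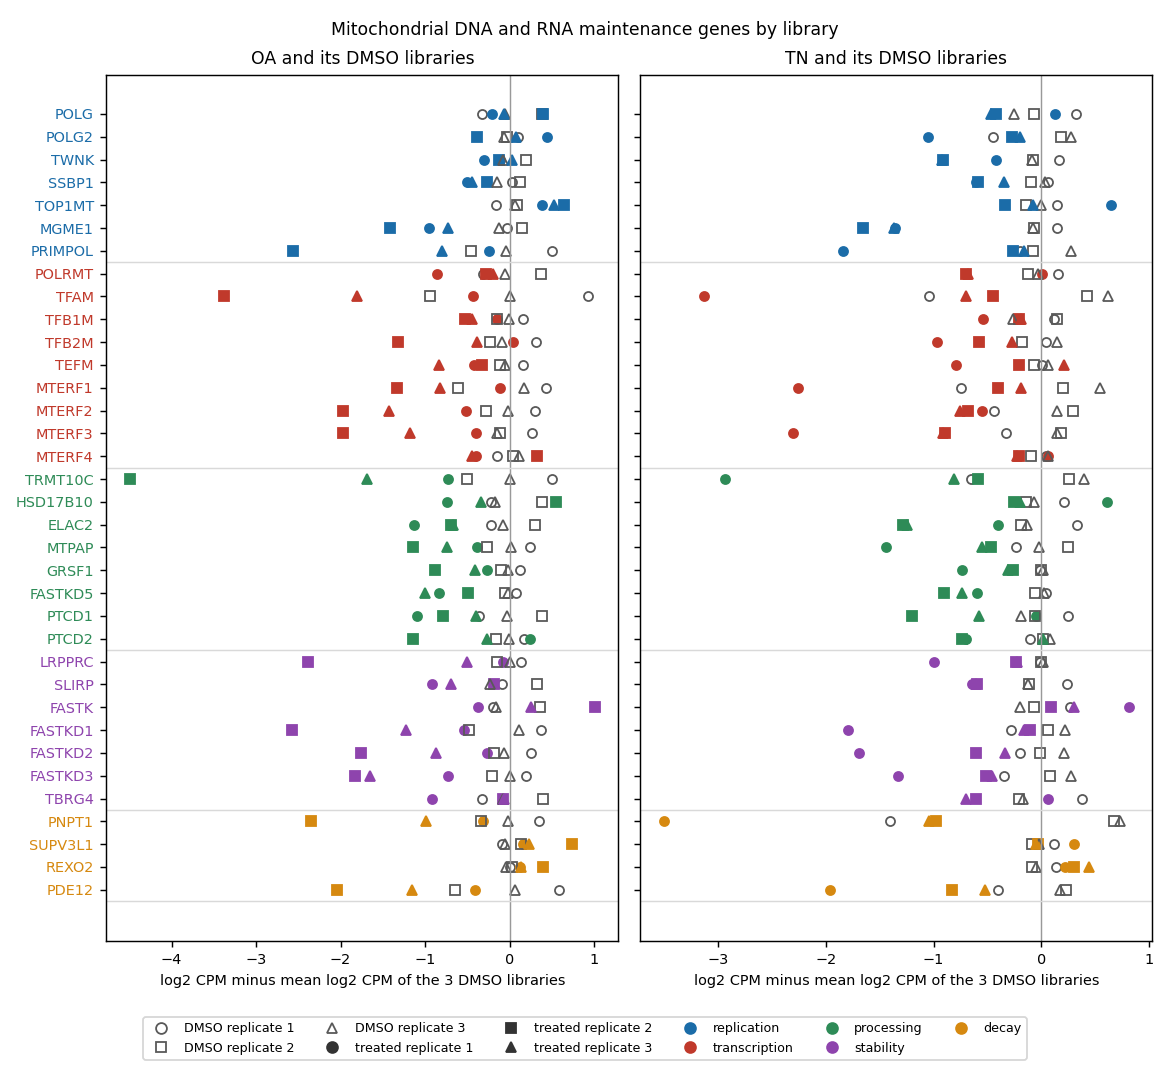
Level of each of the 35 genes in each library, as log2 CPM (prior count of 2) minus the mean of the 3 DMSO libraries of the same set, for OA (left) and TN (right). Open symbols are DMSO libraries, filled symbols are treated libraries coloured by step, and the symbol shape is the replicate number. Most filled symbols lie left of 0, and OA replicate 2 (squares) and TN replicate 1 (circles) lie farthest left for genes such as TRMT10C, TFAM and PNPT1.

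The steps differed in their medians more with OA than with TN. With OA the median log2 fold change was -0.14 for replication, -0.52 for transcription, -0.75 for processing, -0.71 for stability and -0.40 for decay. With TN it was -0.51, -0.59, -0.65, -0.52 and -0.47 in the same order. With an offset for the GC content of the transcripts, described further on, these medians were -0.10, -0.24, -0.51, -0.49 and -0.16 with OA and -0.39, -0.57, -0.60, -0.38 and -0.34 with TN. With all libraries and without the GC offset, the 9 transcription genes were all below 0 in both comparisons. Replication with OA was split into 4 genes below and 3 above 0. The step medians of single libraries, shown in their own plot, did not overlap between treated and DMSO libraries for transcription, processing, and stability in either set, and overlapped for decay and replication only with OA. Differences between steps were not tested.

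**Figure D2:**
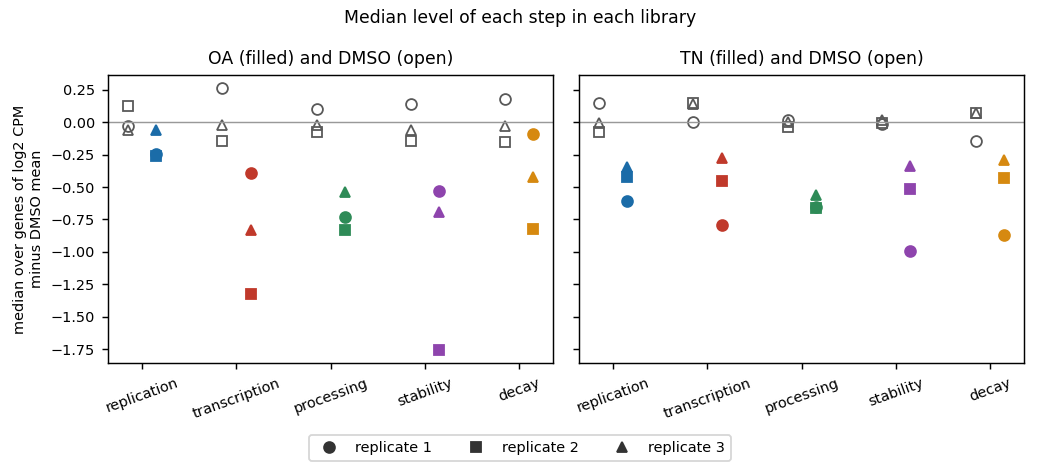
Median over the genes of each step of log2 CPM minus the DMSO mean, 1 point per library, for OA (left) and TN (right). Filled points are treated libraries, open points DMSO libraries, and shapes give the replicate number. With TN the treated libraries lie below the DMSO libraries for all 5 steps, and with OA the stability genes of replicate 2 reach -1.76.

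Among the replication genes, MGME1 was set apart. MGME1 (chr20:17969018-17991122, plus strand) encodes a single-strand exonuclease that trims the ends of newly copied mitochondrial DNA. It stood at 99.2, 85.2 and 84.9 CPM in the DMSO libraries of TN and at 34.9, 28.4 and 34.5 CPM with TN, which gave a log2 fold change of -1.46 (SE 0.20) and an adjusted p of 0.00856 in edgeR. The groups were far apart and all 3 pairs were lower. Its adjusted p was between 0.00335 and 0.0570 without 1 library at a time, and it was called in all 9 other settings. With OA it stood at 72.2, 82.0 and 67.9 CPM in DMSO and at 38.0, 27.5 and 44.5 CPM in treated libraries, again without overlap. The log2 fold change with OA was -1.01 (SE 0.26), and the adjusted p of 0.0665 did not pass in edgeR, although that of DESeq2, 0.0123, did.

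TWNK, the replicative helicase that unwinds mitochondrial DNA ahead of the polymerase, differed in its values between the stressors. It stood at 54.8, 46.2 and 45.9 CPM in DMSO and at 36.3, 25.8 and 25.7 CPM with TN, and these groups did not overlap. The log2 fold change was -0.74 (SE 0.23) with an adjusted p of 0.0949, which became 0.00906 with the replicate block, 0.0339 with DESeq2 and 0.0195 without TN replicate 1. With OA the DMSO libraries held 51.4, 63.5 and 52.6 CPM and the treated libraries 45.1, 50.9 and 56.6 CPM, which overlapped, and the log2 fold change was -0.14 (SE 0.23). The difference between the stressors (OA minus TN) was 0.54 (SE 0.29) and did not pass the edgeR test.

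For the DNA polymerase no difference passed the edgeR test. POLG, the catalytic subunit, had log2 fold changes of 0.04 (SE 0.28) with OA and -0.25 (SE 0.26) with TN, and POLG2, its processivity subunit, 0.08 (SE 0.28) and -0.49 (SE 0.32). All 4 pairs of groups overlapped. The adjusted p of POLG2 with TN was 0.0524 with the replicate block and 0.0418 with the block and the GC offset together. SSBP1, which coats the displaced single strand, was among the most abundant members, at 163, 147 and 160.2 CPM in DMSO and 103, 104 and 123 CPM with TN. Its groups did not overlap, and its log2 fold change was -0.51 (SE 0.19) with an adjusted p of 0.147. This p was 0.0311 with the replicate block and 0.111 with the block and the GC offset together. With OA the log2 fold change of SSBP1 was -0.41 (SE 0.22), also without overlap.

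TOP1MT, the mitochondrial topoisomerase that relieves supercoils, had a log2 fold change of 0.52 (SE 0.23) with OA. This was the highest of all members with all libraries and without the GC offset. With that offset REXO2 had 0.96 and TOP1MT 0.38. The 3 DMSO libraries of TOP1MT held 34.6, 41.3 and 40.6 CPM and its OA libraries 50.6, 60.4 and 55.9 CPM, all of them higher, with an adjusted p of 0.217. With TN its libraries overlapped, and 1 of 3, at 57.9 CPM, was above all DMSO libraries, and its log2 fold change of 0.13 turned to -0.17 without TN replicate 1. PRIMPOL, a primase that restarts stalled forks, was scarce, with 9.82 ± 3.34 CPM (SD, n = 3) in the DMSO libraries of OA, and OA replicate 2 alone stood at 1.497 CPM. Its log2 fold change with OA was -0.98 with all libraries, and leaving out 1 library gave values between -1.52 (OA replicate 1 left out) and -0.53 (OA replicate 2 left out). With TN it was -0.60 (SE 0.44), and the groups overlapped. CENPU overlaps 18.6% of the PRIMPOL exon length on the opposite strand. The strand setting of the counts is not stated, so reads of CENPU may be among those of PRIMPOL.

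In transcription, TFAM had the widest spread. TFAM (chr10:58385345-58399220, plus strand) bends promoter DNA for the polymerase and packs the mitochondrial genome into nucleoids. It stood at 87.6, 23.9 and 46.3 CPM in the DMSO libraries of OA and at 33.9, 4.29 and 13.1 CPM with OA. OA replicate 1 was above the lowest DMSO library, so the groups overlapped. The log2 fold change was -1.61 (SE 0.72) with an adjusted p of 0.225, and leaving out 1 library gave values between -2.61 (OA replicate 1 left out) and -0.95 (DMSO replicate 1 left out). In the TN set TFAM stood at 34.0, 94.3 and 108 CPM in DMSO and at 7.90, 51.3 and 43.2 CPM with TN. Here the log2 fold change of -1.20 (SE 0.68) had an adjusted p of 0.331 without and 0.00392 with the replicate block, and leaving out 1 library gave values between -1.62 (TN replicate 2 left out) and -0.67 (TN replicate 1 left out).

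The core polymerase and its second initiation factor had smaller values. POLRMT, the RNA polymerase, stood at 92.3, 149 and 111 CPM in DMSO and 63.5, 94.7 and 101 CPM with OA, and at 94.9, 78.2 and 83.0 CPM and 85.4, 52.3 and 53.0 CPM in the TN set. Its log2 fold changes of -0.44 (SE 0.29) and -0.43 (SE 0.25) came with overlapping groups. The OA value was -0.19 without DMSO replicate 2. With TN the adjusted p was 0.357 in edgeR, 0.0177 with the GC offset, 0.00229 with the block and the GC offset together, and 0.0445 without TN replicate 1. A copy at 95% identity or more covers 98.5% of its transcript elsewhere in hg38, so its counts are uncertain. TFB2M, which melts the promoter with POLRMT, was lower in all 3 TN libraries (20.2, 26.5 and 32.7 CPM) than in the DMSO libraries (40.7, 34.9 and 43.7 CPM), with a log2 fold change of -0.59 (SE 0.24). Its adjusted p was 0.193, or 0.0400 with the block. With OA the log2 fold change of TFB2M was -0.47 (SE 0.37), and its groups overlapped. Leaving out 1 library gave values between -0.81 (OA replicate 1 left out) and -0.16 (OA replicate 2 left out).

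TFB1M, the dimethyltransferase of the small ribosomal RNA, had log2 fold changes of -0.37 (SE 0.25) and -0.32 (SE 0.22), and TEFM, the elongation factor that carries the polymerase past the light-strand termination point, -0.52 (SE 0.27) and -0.21 (SE 0.29). Both were without overlap with OA and overlapped with TN. For TFB1M the OA groups were only just apart, with 24.93 CPM in OA replicate 1 against 24.97 CPM in DMSO replicate 2. Without TN replicate 1 the TN value of TEFM turned to 0.06 and that of TFB1M came to -0.17. Without TN replicate 3 the TN value of TEFM was -0.50. TFB1M shares 30.7% of its exon length with genes on the opposite strand and TEFM 20.5%, and the strand setting of the counts is not stated, so reads of the partners may be among their counts.

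The 4 MTERF proteins, helical-repeat proteins that bind mitochondrial nucleic acids, were all below 0 in both comparisons. MTERF3, which is needed for assembly of the mitochondrial ribosome and binds near the promoters, stood at 48.0, 68.4 and 67.0 CPM in DMSO and at 12.1, 32.5 and 32.03 CPM with TN, without overlap. Its log2 fold change was -1.26 (SE 0.39), with an adjusted p of 0.0974 in edgeR, 0.0338 in DESeq2 and 0.00312 with the replicate block. With OA it was -1.05 (SE 0.40) from 62.3, 47.9 and 46.7 CPM to 39.5, 13.2 and 22.8 CPM, again without overlap, and its adjusted p was 0.159. MTERF2 was scarce, with 6.70 ± 1.39 CPM in DMSO and 2.85 ± 1.54 CPM with OA (SD, n = 3), and its groups did not overlap in either set.

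MTERF1, which binds a termination site behind the ribosomal RNA genes, depended on single libraries. Its log2 fold change with OA was -0.74, or -0.24 with the GC offset. Without 1 library it lay between -1.15 (OA replicate 1 left out) and -0.45 (DMSO replicate 1 left out). With TN it was -0.80, and it lay between -1.13 (TN replicate 3 left out) and -0.33 (TN replicate 1 left out). Its adjusted p with TN was 0.428, or 0.0184 with the block. MTERF4, a partner of the ribosomal RNA methyltransferase NSUN4, was nearest to 0, with -0.13 (SE 0.29) and -0.12 (SE 0.20). SNED1 overlaps 51.0% of its exon length on the opposite strand.

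The processing genes held the lowest median in edgeR with both stressors, although with the replicate block the OA median of the stability genes (-0.96) was below theirs (-0.76), and ELAC2 was lower in every treated library. ELAC2 (chr17:12991612-13018065, minus strand) is the endonuclease that cuts precursor transfer RNAs at their 3′ ends. It stood at 191, 275 and 211 CPM in DMSO and at 102, 138 and 140.4 CPM with OA, and at 245, 171 and 178 CPM in DMSO and at 147, 80.1 and 82.3 CPM with TN. Neither pair of groups overlapped. The log2 fold changes of -0.83 (SE 0.25) and -0.94 (SE 0.30) had adjusted p-values of 0.0994 and 0.110 in edgeR and of 0.0432 and 0.0362 in DESeq2. With the replicate block the TN value was 0.00275. ELAC2 also acts on nuclear transfer RNAs.

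At the 5′ end the cut is made by a complex of TRMT10C, HSD17B10 and the nuclease PRORP, and its parts had unlike values. TRMT10C, the methyltransferase subunit, stood at 89.9, 44.7 and 63.6 CPM in DMSO and at 38.3, 2.69 and 19.6 CPM with OA. The OA libraries lay wholly below the DMSO libraries, and OA replicate 2 was the lowest value of any member relative to its DMSO libraries. The log2 fold change of -1.70 (SE 0.75) was the lowest of all 35 with OA, with an adjusted p of 0.217, and leaving out 1 library gave values between -2.58 (OA replicate 1 left out) and -1.16 (OA replicate 2 left out). In the TN set it stood at 49.3, 92.4 and 102 CPM in DMSO and at 10.0, 51.5 and 44.05 CPM with TN, which overlapped. Its adjusted p with TN was 0.248, or 0.00663 with the block, and its log2 fold change of -1.21 ranged between -1.58 (TN replicate 2 left out) and -0.71 (TN replicate 1 left out).

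HSD17B10, the dehydrogenase that holds TRMT10C in the complex and also breaks down isoleucine, had log2 fold changes of -0.10 (SE 0.36) and 0.10 (SE 0.28). Its level in OA replicate 2 (185 CPM) and TN replicate 1 (175 CPM) was the highest of each set, the reverse of TRMT10C in the same libraries. PRORP, which is no member, stood at 4.02 ± 1.02 CPM in the DMSO libraries of OA (SD, n = 3), with a log2 fold change of -0.29 (SE 0.50) with OA and of -0.76 (SE 0.44) with TN.

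FASTKD5, which is needed to free messenger RNAs that no transfer RNA flanks, stood at 31.8, 29.1 and 29.8 CPM in DMSO and at 16.9, 21.5 and 15.04 CPM with OA. In the TN set these values were 33.9, 31.5 and 33.4 CPM and 21.7, 17.5 and 19.7 CPM. Both comparisons were without overlap, with log2 fold changes of -0.77 (SE 0.25) and -0.74 (SE 0.20). The adjusted p-values were 0.119 and 0.0672 in edgeR, 0.0481 and 0.0133 in DESeq2, and 0.0111 with TN and the block.

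MTPAP, the poly(A) polymerase of mtRNA, had log2 fold changes of -0.74 (SE 0.29) and -0.77 (SE 0.30), both without overlap, and an adjusted p with TN of 0.168, or 0.0125 with the block. GRSF1, which binds G-rich RNA in mitochondrial RNA granules, was one of the most even members in DMSO, at 257, 258 and 263 CPM in the TN set, and stood at 155, 216 and 209 CPM with TN. Its log2 fold changes were -0.50 (SE 0.24) and -0.42 (SE 0.20), again without overlap, and its adjusted p-values were 0.257 and 0.250. The pentatricopeptide proteins are PTCD1, which acts on leucine transfer RNAs and the large ribosomal RNA, and PTCD2, which acts on cytochrome b RNA. They had values of -0.78 (SE 0.34) and -0.29 (SE 0.37) with OA and of -0.56 (SE 0.35) and -0.44 (SE 0.27) with TN. Without 1 library PTCD2 lay between -0.67 (OA replicate 1 left out) and 0.02 (OA replicate 2 left out) with OA. With TN it lay between -0.76 (TN replicate 3 left out) and -0.27 (TN replicate 1 left out). PTCD1 lay between -0.99 (OA replicate 3 left out) and -0.52 (DMSO replicate 2 left out) with OA. With TN it lay between -0.85 (TN replicate 1 left out) and -0.31 (TN replicate 2 left out). The readthrough gene ATP5MF-PTCD1 and others share 42.2% of the PTCD1 exon length on the same strand, so its counts are uncertain.

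LRPPRC, which with SLIRP keeps mitochondrial messenger RNAs stable and open for polyadenylation, held the most counts of all members. It stood at 501, 507 and 513 CPM in the DMSO libraries of TN, within a narrow range, and at 254, 431 and 433 CPM with TN, all lower. With OA the values were 507, 416 and 464 CPM in DMSO and 437, 87.9 and 324 CPM in treated libraries, and OA replicate 2 was far below the other 5 libraries. The log2 fold changes were -0.71 (SE 0.49) with OA and -0.44 (SE 0.24) with TN. Leaving out 1 library gave values between -1.18 (OA replicate 1 left out) and -0.27 (OA replicate 2 left out) with OA and between -0.58 (TN replicate 3 left out) and -0.19 (TN replicate 1 left out) with TN.

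SLIRP did not share this pattern. It stood at 146, 114 and 114 CPM in DMSO and at 79.3, 81.6 and 81.4 CPM with TN, so that the 3 treated libraries were nearly the same and all below DMSO. Its log2 fold change was -0.63 (SE 0.20) with an adjusted p of 0.101, or 0.0209 with the replicate block. With OA it stood at 116, 154 and 105 CPM in DMSO and at 65.3, 108 and 76.4 CPM in treated libraries. OA replicate 2 was here the highest treated library and the only one to overlap DMSO, and the log2 fold change was -0.59 (SE 0.28).

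The FASTK family binds and protects or trims individual mtRNAs. FASTK, whose mitochondrial isoform is needed for ND6 messenger RNA, had values above 0, 0.39 (SE 0.37) with OA and 0.42 (SE 0.26) with TN, with overlapping groups, but with OA it turned to -0.07 without OA replicate 2, and with TN it was 0.23 without TN replicate 1. FASTKD3 stood at 18.3, 13.8 and 16.1 CPM in DMSO and at 9.59, 4.39 and 4.98 CPM with OA, without overlap. Its log2 fold change of -1.34 (SE 0.37) had an adjusted p of 0.0765 in edgeR and 0.0133 in DESeq2. With TN it stood at 14.3, 19.2 and 22.1 CPM in DMSO and at 7.16, 12.7 and 13.2 CPM in treated libraries, also lower throughout, with -0.75 (SE 0.31) and an adjusted p of 0.198, or 0.0194 with the block.

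FASTKD2, a granule protein needed for the large ribosomal RNA, had -0.85 (SE 0.37) and -0.78 (SE 0.35), both without overlap, and an adjusted p with TN of 0.222, or 0.0183 with the block. Leaving out 1 library gave values between -1.27 (OA replicate 1 left out) and -0.53 (OA replicate 2 left out) with OA and between -1.06 (TN replicate 3 left out) and -0.43 (TN replicate 1 left out) with TN. FASTKD1, which limits ND3 messenger RNA, had -1.27 (SE 0.49) with OA, where OA replicate 2 stood at 6.09 CPM against 25.5 and 15.8 CPM in its replicates, and leaving out 1 library gave values between -1.82 (OA replicate 1 left out) and -0.86 (OA replicate 2 left out). With TN its value of -0.52 ranged between -0.77 (TN replicate 2 left out) and -0.10 (TN replicate 1 left out). TBRG4, also known as FASTKD4, had -0.33 (SE 0.31) and -0.40 (SE 0.28), with overlap in both. Leaving out 1 library gave values between -0.48 (OA replicate 2 left out) and -0.07 (DMSO replicate 2 left out) with OA. With TN they lay between -0.64 (TN replicate 1 left out) and -0.19 (DMSO replicate 1 left out). The adjusted p of TBRG4 with TN was 0.442, or 0.00605 with the block and the GC offset together.

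The decay genes were split, and the 2 parts of the degradosome had unlike values. PNPT1 (chr2:55634061-55693863, minus strand), the exoribonuclease, stood at 64.8, 40.1 and 50.3 CPM in DMSO and at 40.9, 9.88 and 25.6 CPM with OA, with a log2 fold change of -1.02 (SE 0.47) and groups that just overlapped. Leaving out 1 library gave values between -1.56 (OA replicate 1 left out) and -0.62 (OA replicate 2 left out). In the TN set it stood at 45.6, 193 and 201 CPM in DMSO and at 10.5, 61.5 and 58.9 CPM with TN. Each treated library was below its DMSO library of the same number, at 0.231, 0.318 and 0.293 of it, but the DMSO libraries themselves differed as widely and the groups overlapped. The log2 fold change of -1.75 (SE 0.74) was the lowest of all members with TN, and its adjusted p was 0.203 without and 0.000283 with the replicate block. PNPT1 is itself an interferon-inducible gene, and in the TN set it was higher, as IFIT1 and ISG15 were, in the DMSO and TN libraries numbered 2 and 3 than in those numbered 1. ISG15, a ubiquitin-like modifier also chosen after its values were seen, stood at 228, 2611 and 2644 CPM in the same DMSO libraries and at 283, 1046 and 1112 CPM with TN. In the OA set, where IFIT1 was at most 16.7 CPM, PNPT1 never exceeded 64.8 CPM. The part of this interferon difference in the PNPT1 result was not tested.

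SUPV3L1, the helicase partner of PNPT1, stood at 55.0, 64.5 and 56.3 CPM in DMSO and at 65.0, 97.6 and 68.4 CPM with OA, all higher. Its log2 fold change was 0.39 (SE 0.25) with an adjusted p of 0.381. Without OA replicate 2 the log2 fold change was 0.18 and the adjusted p 0.657. With TN the log2 fold change of SUPV3L1 was 0.08 (SE 0.20), or -0.0006 without TN replicate 1, and its groups overlapped. REXO2, which digests the short oligonucleotides that the degradosome leaves, was the only member above its DMSO libraries without overlap in both sets. It stood at 45.4, 46.0 and 43.7 CPM in DMSO and at 49.3, 59.5 and 49.4 CPM with OA, and at 50.2, 42.8 and 44.1 CPM and 53.2, 56.2 and 62.0 CPM in the TN set. Its log2 fold changes of 0.23 (SE 0.22) and 0.32 (SE 0.19) did not pass the test, and with scaling to total counts they were 0.01 and 0.19. With the GC offset they were 0.96 and 0.71, with adjusted p-values of 0.238 and 0.414. REXO2 passed in 1 of 9 other settings in each set, the GC offset with the replicate block (adjusted p = 0.00833 with OA, where the numbers were not taken as pairs, and 0.00214 with TN).

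PDE12, which removes poly(A) tails from mtRNA and also degrades the 2-5A messenger of the interferon response, stood at 39.2, 60.5 and 58.3 CPM in DMSO and at 13.2, 29.0 and 35.9 CPM with TN, without overlap. Its log2 fold change of -1.01 (SE 0.38) had an adjusted p of 0.157, or 0.00544 with the block. With OA the value was -1.14 (SE 0.47), from 62.6, 26.4 and 43.4 CPM to 31.3, 9.98 and 18.7 CPM. These groups overlapped.

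Per kilobase of canonical transcript, the members covered a wide range in untreated cells. The counts are of whole genes, and the annotated exons of some are far longer than this transcript. These lengths are 2631 against 376 bases for SLIRP, 4975 against 677 for SSBP1 and 34689 against 6603 for LRPPRC. The order below therefore rests on the length chosen, and it may differ by exon length. SLIRP was highest, at 333 ± 69.0 CPM per kb in the DMSO libraries of OA and 332 ± 49.7 in those of TN (SD, n = 3), followed by SSBP1 at 205 ± 19.5 and 232 ± 12.8 and HSD17B10 at 134 ± 33.1 and 121 ± 15.8. TBRG4 and LRPPRC came next, with ranges that overlapped each other in both sets, and ELAC2 stood at 59.9 ± 11.7 and 52.6 ± 10.9. POLRMT, at 31.1 ± 7.62 and 22.6 ± 2.27, was above the DNA polymerase POLG, at 14.5 ± 3.69 and 12.4 ± 2.61. The lowest were PTCD1 and PTCD2, at 1.85 ± 0.493 and 1.67 ± 0.188 in the OA set. From ELAC2 downward most neighbours in the order overlapped in their 3 values. The partners LRPPRC and SLIRP, which bind as a complex, did not overlap in CPM per kb in either set. SUPV3L1, at 23.9 ± 1.72 CPM per kb, and PNPT1, at 32.3 ± 19.3, overlapped in the DMSO libraries of TN, whereas in those of OA SUPV3L1, at 23.7 ± 2.06, was above PNPT1, at 11.4 ± 2.73, without overlap.

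Across the 35 genes, the changes with OA and TN ran together. Pearson's correlation of the log2 fold changes was 0.80 and Spearman's 0.83, with 28 genes below 0 and 4 above 0 in both, and over the 14071 genes tested in both sets they were 0.80 and 0.78. The sets share no library, but the genes share the cell line and are not independent points. The difference between the changes (OA minus TN) ranged from -0.81 for FASTKD1 to 0.64 for PNPT1, with standard errors from 0.26 to 1.13. No member passed the edgeR test of the difference, 0 had an unadjusted p under 0.05, and the lowest unadjusted p was 0.0831, for TWNK. Of all 15429 genes 0 passed (0%), 348 (2.26%) had an unadjusted p under 0.05 and DESeq2 called 2, none of them a member. With such standard errors, differences of 1 log2 unit between OA and TN were not detectable for genes such as TFAM and TRMT10C.

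**Figure D3:**
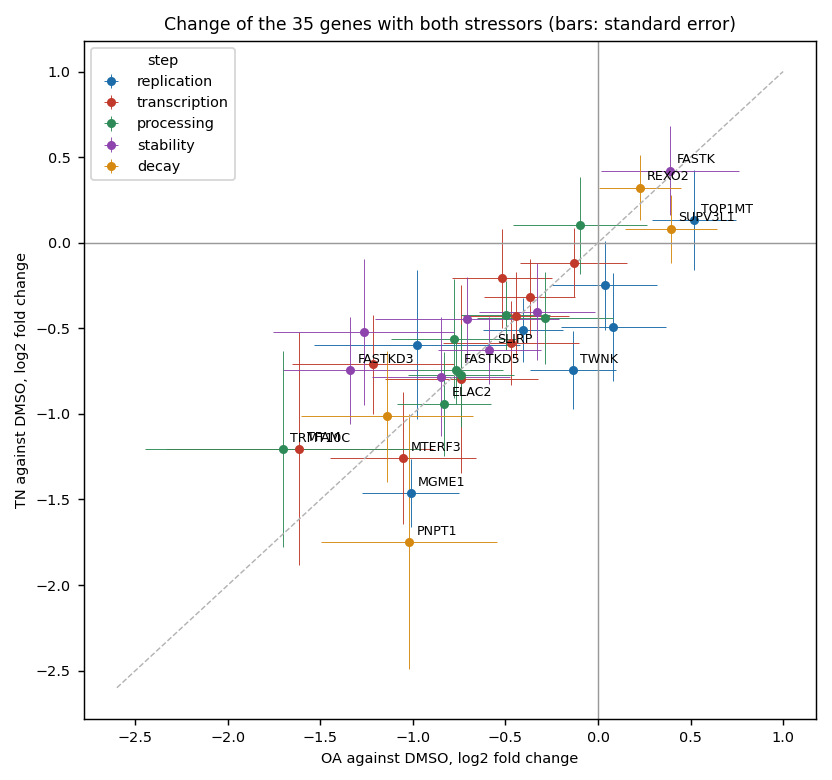
Log2 fold change with OA (x axis) against log2 fold change with TN (y axis) for the 35 genes, coloured by step, with bars of 1 standard error and a dashed line of equality. FASTK, REXO2, TOP1MT and SUPV3L1 lie above 0 on both axes, and 28 genes lie below 0 on both, with TWNK near 0 on the OA axis only.

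The base composition of the transcripts went with these values. The members were poor in GC, with a median of 41.9% over the longest transcripts against 48.2% over the tested genes of OA. The 17 members below that median had a median log2 fold change of -0.85 with OA and -0.75 with TN, and the other 18 of -0.31 and -0.42. Across members, Pearson's correlation of log2 fold change with GC content was 0.47 with OA and 0.34 with TN, against 0.22 and 0.17 across all genes. Single libraries also differed in this way within a group. Among the members the correlation with GC content of a library's log2 deviation from the DMSO mean ranged from -0.75 in DMSO replicate 1 to 0.71 in DMSO replicate 2 of the OA set. It was -0.24, 0.55 and 0.56 in the OA libraries, from -0.55 to 0.54 in the DMSO libraries of TN, and -0.18, -0.14 and 0.63 in TN replicates 2, 3 and 1. REXO2, at 32.8%, was the poorest in GC of all members.

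With the GC content of each transcript offset library by library, the member medians were -0.44 with OA and -0.46 with TN, against 0.02 and 0.01 for all genes, and 28 and 31 members were below 0. With this offset 7 members fell with OA (MGME1, TFAM, MTERF3, ELAC2, FASTKD1, FASTKD3 and PDE12), against 7.7% of all genes, and 11 with TN (TWNK, MGME1, POLRMT, TFAM, MTERF3, TRMT10C, ELAC2, MTPAP, FASTKD2, PNPT1 and PDE12), against 10.6%. SSBP1 and TEFM turned to 0.11 and 0.09 with OA, and SLIRP came to -0.05 and TFB1M to -0.12. With TN SSBP1 came to -0.20 and TEFM to -0.01. POLRMT and ELAC2 went farther below 0 with OA, to -0.55 and -0.98. Without OA replicate 2 the member median was -0.53 with OA, with 30 members below 0, and without TN replicate 1 it was -0.43 with TN, with 32 below 0. Scaling to total counts moved the median of all genes to -0.23 with OA and -0.18 with TN, and the members to -0.79 and -0.69.

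**Figure D4:**
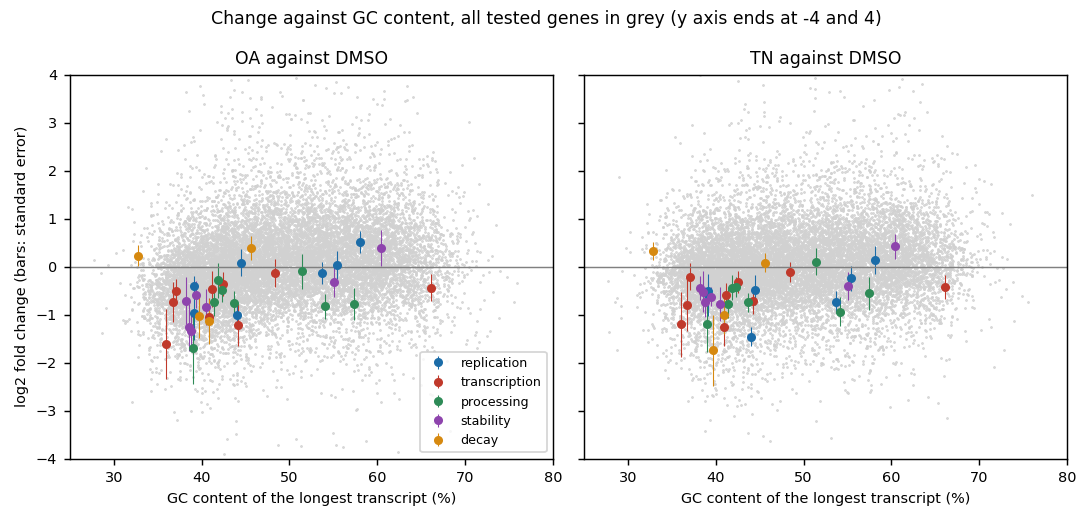
Log2 fold change against GC content of the longest transcript (%) for OA (left) and TN (right). Coloured points with bars of 1 standard error are the 35 genes by step, and grey points are all tested genes, cut at log2 values of -4 and 4. Most members lie between 36.0% and 45.6% GC and below 0, and ELAC2 (54.1%) and POLRMT (66.1%) lie below 0 at higher GC content.

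RefSeq (GRCh38.p14) gave a promoter, from 250 bases before to 50 after the start, for 31 of the 35 genes, and TWNK, TOP1MT, MTERF3 and FASTKD5 were not matched. Both strands were searched for short motifs of factors known from mitochondrial and stress genes, none of which contains another. The ETS core CCGGAAG, bound by GABP (NRF-2), was found in 12 of 31 promoters (38.7%), against 10.3% of 35116 promoters and 19.6% of the 10223 promoters of genes tested in both sets. The NRF-1 core, GCGCA and GCGC with any base between them, was found in 6 (19.4%), namely POLG2, POLRMT, TFAM, TFB1M, PTCD1 and REXO2, against 5.78% and 12.1%. The stress elements TGATGNAA, bound by ATF4 with C/EBP partners, and the ER stress element, CCAAT and CCACG with 9 bases between them, were found in 0 of 31, against 1.60% and 0.147% of the promoters of tested genes. The E-box CACGTG, which MYC and other factors bind, was found in 2 (6.45%, against 10.2%), and the longer YY1 motif in 1, SLIRP (3.23%, against 2.15%). The windows below are 5′ to 3′ on the strand of the gene, with matches in capitals. ELAC2, a member that was lower with both stressors, is shown from 250 to 51 bases before its RefSeq start. It holds 3 ETS cores, of which those in the first run overlap. The 3 other windows are short stretches with 7 bases on each side of the matches. The NRF-1 cores of POLRMT, of which there are 2 that overlap, begin 24 bases before its RefSeq start. That of TFAM begins 63 bases and the ETS core of SLIRP 76 bases before the RefSeq start. For TFAM, ELAC2 and SLIRP this start differs from that of the gene coordinates used elsewhere here. By those coordinates the TFAM core lies inside the gene. All 4 were chosen to show matches. The promoters of MGME1 and FASTKD3, whose p-values were lower than that of ELAC2, held neither core.
ELAC2, chr17:13018078-13018277, minus strand: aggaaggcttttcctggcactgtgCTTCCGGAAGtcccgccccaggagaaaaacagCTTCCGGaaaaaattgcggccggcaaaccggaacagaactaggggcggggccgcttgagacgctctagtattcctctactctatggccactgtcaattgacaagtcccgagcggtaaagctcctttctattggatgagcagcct
POLRMT, chr19:633539-633568, minus strand: ggcgcggGCGCATGCGCAGGCGCgggccgg
TFAM, chr10:58385340-58385363, plus strand: ctctcccGCGCCTGCGCcaattcc
SLIRP, chr14:77708020-77708040, plus strand: ctctgatCCGGAAGcagattc
These are matches of letters in a window of the reference. The regulators themselves were measured in the same libraries. NRF1 had a log2 fold change of -0.37 (SE 0.30) and GABPA of -0.47 (SE 0.52) with OA, and with TN they had -0.26 (SE 0.32) and -0.21 (SE 0.55), none of which passed the test.

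Of 12 nuclear regulators of mitochondrial genes, 11 were tested and 10 of these were below 0 in both comparisons. With OA 0 passed the edgeR test or that of DESeq2 (2 had an unadjusted edgeR p under 0.05, both lower). With TN 2 fell, PPARGC1B, a coactivator of NRF-1 and ESRRA, by 1.43 (SE 0.28, adjusted p = 0.0274) on the log2 scale, and MYC, which fell by 1.19 (SE 0.24, adjusted p = 0.0292). DESeq2 also called PPRC1, a relative of PPARGC1B, lower with TN. PPARGC1A, the best known coactivator of mitochondrial biogenesis, was at 0 counts in all 12 libraries, which by counting error allows up to 3 counts in each.

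A further 25 genes serve the upkeep of mitochondrial DNA outside the members, such as nucleotide supply and repair. Of these, 19 were below 0 with OA and 20 with TN, with medians of -0.35 and -0.46. FEN1, a flap endonuclease of nuclear and mitochondrial DNA, fell by 1.73 (SE 0.27, adjusted p = 0.0219) with OA and fell by 2.03 (SE 0.30, adjusted p = 0.0115) with TN. UNG, the uracil DNA glycosylase with a nuclear and a mitochondrial form, fell by 1.43 (SE 0.32, adjusted p = 0.0467) with OA and fell by 1.39 (SE 0.25, adjusted p = 0.0204) with TN. Both also serve replication and repair of nuclear DNA. With OA both lost their calls whenever 1 DMSO library of OA was left out, since no gene was called lower in those fits. No gene of the 25 rose by the edgeR test in either set (2 with OA and 1 with TN were higher at an unadjusted p under 0.05), and DESeq2 called 1, TYMP, higher in each set. DESeq2 also called DNA2 lower with OA, and DNA2, ATAD3A, ATAD3B and TOP3A with TN.

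Of 31 genes of mtRNA modification and ribosomal RNA assembly, 31 were tested with OA and 30 with TN, and 23 were below 0 in each, with medians of -0.30 and -0.27. With OA 0 passed in edgeR and 0 in DESeq2 (3 had an unadjusted edgeR p under 0.05). With TN 1 passed, NGRN, a binding partner of the large ribosomal RNA, which rose by 0.88 (SE 0.20, adjusted p = 0.0431). DESeq2 called NGRN and MTO1, a tRNA-modifying enzyme, higher and QTRT2, a subunit of the tRNA-guanine transglycosylase, lower with TN.

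The products of this machinery were measured in the same libraries, where MT-CO1, a subunit of cytochrome c oxidase, stood at 501 ± 60.7 CPM in the DMSO libraries of OA and MT-RNR2, the large ribosomal RNA, at 10.96 ± 5.13 CPM (SD, n = 3). Of 15 mtDNA-encoded RNAs 13 were tested. With OA MT-RNR2 rose by 1.76 (SE 0.40, adjusted p = 0.0477) and MT-ND6, the only messenger RNA of the light strand, fell by 1.38 (SE 0.30, adjusted p = 0.0428). MT-ND6 lost this call whenever 1 DMSO library of OA was left out, since no gene was called lower in those fits. Only 5, 3 and 3 genes were called in them, all higher, and whether MT-RNR2 was among these was not examined. MT-CO1 and MT-CO3, also of cytochrome c oxidase, were higher in every OA library than in DMSO, with log2 fold changes of 0.88 (SE 0.25, adjusted p = 0.0865) and 0.88 (SE 0.22, adjusted p = 0.0654), and DESeq2 called both higher along with MT-RNR2. With TN the same genes had 0.65 and 0.69, again without overlap. The median of the 13 was 0.34 with OA, with 8 above 0, and -0.20 with TN, with 6 above 0 and 0 that passed in edgeR or DESeq2 (3 had an unadjusted edgeR p under 0.05). Against a median of -0.59 for the 35 genes with OA, the median of the mtRNAs lay on the other side of 0. MT-RNR2 has near-identical nuclear copies, so its counts are uncertain. Genes named as copies of MT-CO1, MT-CO3 and MT-ATP6 (MTCO1P12, MTCO3P12 and MTATP6P1) were also among the tested genes of OA. The counts of those mtRNAs may be uncertain too. Both strands of the mitochondrial genome are transcribed and the strand setting of the counts is not stated. The counts of MT-ND6 may therefore hold reads of the other strand.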

How the data were processed

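HCT116 RNA was sequenced in 12 libraries. Reads were mapped by the authors to hg38 (STAR 2.7.9) and counted on genes of Gencode 32, and the raw counts they deposited were used here without change. Which strand was counted is not given in the sources used here. The authors also deposited DESeq2 comparisons of each stressor with DMSO (fold changes and p-values per gene), which were not used.

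The counts were filtered with filterByExpr, normalized by TMM, and tested two-sided in R 4.3.3 with edgeR 4.0.16 (quasi-likelihood test). Each stressor was fitted against its own DMSO libraries without a replicate term, and p-values were adjusted by the Benjamini-Hochberg method over all tested genes, with a threshold of 0.05. Adjusted p-values are from this test where no other is named. Standard errors were derived from each log2 fold change and its F statistic. CPM are scaled by TMM. The difference between the stressors was fitted over all 12 libraries. Depth was 9884124 to 24983573 counts per library, with 3 replicates per group. Whether depth or the number of replicates limits the precision for the members was not tested.

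Groups came from the sample labels. Libraries of a group differed beyond sampling noise, with a chi-square per gene of at least 6.25. Same-numbered libraries of the TN set deviated together from their group means (correlations across genes of 0.64, 0.41 and 0.43), so that the replicate block is given beside the TN results where it changed a call. The pairing rests on this check and on the shared numbers in the labels, and the check separates number 1 from the others only, since TN replicate 2 correlated at 0.44 with DMSO replicate 3. GC content is that of the longest transcript in Gencode 44 on hg38. Copies and overlapping exons were found in the same genome and annotation. The GC offset is a smooth curve with a span of 0.3, fitted in each library to genes with a mean count of at least 20.

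The alternatives were DESeq2 1.42.0, its size factors, scaling to total counts, other filters, 1 fit of all libraries, the replicate block, the GC offset, both together, and leaving out each library. The members and the lists were chosen with earlier results of these data known, and all 35 members are named. Of each other list at most 3 genes with an adjusted p under 0.05 were named by the lowest p, and other genes named were picked with their values in view.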

Additional observations from a re-analysis of the deposited data

How the results depend on the processing

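No member that was called, in a main fit or in an alternative, had opposite directions in these fits. Only MGME1 with TN was called in a main fit. Members without a call did turn, such as SSBP1 and TEFM in the OA set with the GC offset. So did TOP1MT without TN replicate 1 and FASTK without OA replicate 2. The member median stayed below 0 with OA and with TN, whereas that of OA minus TN, -0.09, turned to 0.04 with the GC offset and ranged from -0.19 to 0.03 without 1 library. With OA, against 0 members and 658 genes called, DESeq2 called 4 members and 1927 genes, scaling to total counts 1 member and 747 genes with a member median of -0.79, no filter 5 and 1572, 1 fit of all 12 libraries 4 and 1681, and the GC offset 7 and 2363. With TN, against 1 member and 1009 genes, DESeq2 called 5 members and 2162 genes, scaling to total counts 4 and 1404, no filter 4 and 1648, 1 fit of all 12 libraries 4 and 1347, and the GC offset 11 and 3127. For OA minus TN, against 0 genes, DESeq2 called 2 and no filter 25. Scaling to total counts split the calls into 352 higher and 395 lower with OA, against 405 and 253, and into 529 and 875 with TN, against 527 and 482. The cause of these differences was not tested. Leaving out 1 library gave 0 to 3 members and 3 to 1179 genes with OA, with 3 to 5 genes without a DMSO library and 91 without OA replicate 3. It gave 0 to 6 members and 151 to 2361 genes with TN, of which the 2361 came without TN replicate 1, and 0 to 4 genes for OA minus TN. MGME1 with TN lost its call without DMSO replicate 2 or 3, with adjusted p-values of 0.0568 and 0.0570.

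The replicate block called 16 members and 3914 genes with OA and 16 members and 3915 genes with TN, and the replicate block with the GC offset 14 and 3781 with OA and 19 and 5401 with TN. REXO2 was higher in both of these last fits and all other called members lower. For OA the same-numbered libraries correlated at 0.62, 0.54 and 0.09, so that the numbers were not taken as pairs. Each OA library correlated best with the DMSO library of its own number, which is a hint from the data only.

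PRIMPOL had the lowest count of any member, 15 in a library of the OA set. The part of depth in the standard errors of the members was not tested.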
